A study of Homo sapiens with 18 samples.

Results

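Clustered protocadherins are the members of 3 neighbouring gene clusters, alpha, beta and gamma, on chromosome 5. Their counts were examined in wild-type (WT) human pluripotent stem cells (PSCs) and in 2 PCGF6-knockout (PCGF6-KO) clones. Members were taken by symbol, as the rows of the count table named PCDHA, PCDHB, PCDHGA, PCDHGB or PCDHGC with a number, plus PCDHAC1 and PCDHAC2. This gave 54 of the 57133 genes, with 16 in the alpha, 16 in the beta and 22 in the gamma cluster. The cells were PGP1, an established human induced PSC line. WT was unedited PGP1, and PCGF6-KO clones 1 and 2 were derived from it by CRISPR-Cas9 deletion in the first exon of PCGF6, a subunit of the Polycomb repressive complex PRC1.6. Each of WT, clone 1 and clone 2 had 2 RNA-seq libraries, and all cells were grown without feeder cells in mTeSR1 medium on Matrigel. Each knockout line is 1 clone, so what a clone carries besides the PCGF6 deletion cannot be told apart from the deletion within that clone. Nothing in the labels says that replicate libraries came from separate cultures, so p-values measure the spread between these libraries, which may be technical.

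Clustered protocadherins are cell-surface adhesion proteins of the cadherin superfamily that bind the identical isoform on a facing membrane. Neurons switch on different combinations of them and so carry a surface identity that lets the branches of 1 neuron recognise and avoid each other. Each alpha and gamma gene has its own promoter and a large variable first exon, which encodes the extracellular, membrane and first intracellular parts and is spliced to constant exons that all members of the cluster share. Beta genes have no shared constant exons. The last members of the alpha and gamma clusters, named C-type, differ from the others in sequence and are used more uniformly across neurons. CTCF, cohesin and DNA methylation at the promoters are known to act in the choice of promoter.

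All members lie on the forward strand of GRCh38. In GENCODE release 44 the alpha cluster spans chr5:140786136-141012347, the beta cluster chr5:141051374-141249365 and the gamma cluster chr5:141330514-141512977. The alpha genes share 2869 constant exon bases and the gamma genes share 2177. Of the 54 members, 53 are protein coding, and PCDHA14 is a pseudogene that lies within exons of PCDHA10.

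Promoter sequences show how alike the members of a cluster are just upstream of their starts, and they are given for the members on which the results turn. They come from RefSeq on GRCh38.p14, which held the promoters of 47 of the 54 members, and are written 5′ to 3′ on the forward strand. The 10 letters in capitals are those that the largest number of promoters of the same cluster share. In the beta cluster these letters are GGTGGCGCTG, and the members shown include PCDHB2 and PCDHB3, which were not called in PCGF6-KO against WT, and 4 members that fell.
PCDHB2 (chr5:141094540-141094579): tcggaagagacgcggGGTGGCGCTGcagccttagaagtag
PCDHB3 (chr5:141100389-141100428): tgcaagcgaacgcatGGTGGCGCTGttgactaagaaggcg
PCDHB7 (chr5:141172562-141172601): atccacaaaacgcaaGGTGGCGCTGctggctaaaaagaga
PCDHB16 (chr5:141182306-141182345): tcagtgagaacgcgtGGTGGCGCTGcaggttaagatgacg
PCDHB12 (chr5:141208639-141208678): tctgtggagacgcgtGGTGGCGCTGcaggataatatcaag
PCDHB13 (chr5:141213861-141213900): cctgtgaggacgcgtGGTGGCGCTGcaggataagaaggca

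In the gamma cluster the shared letters are GCGCCGCTGT, and the sequences shown are those of PCDHGB1, which fell in both clones, PCDHGA10, which fell mainly in clone 2, and PCDHGB5, the member with the most counts in WT.
PCDHGB1 (chr5:141350022-141350061): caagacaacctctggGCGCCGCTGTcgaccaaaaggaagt
PCDHGB5 (chr5:141397860-141397899): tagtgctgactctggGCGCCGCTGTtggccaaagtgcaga
PCDHGA10 (chr5:141412928-141412967): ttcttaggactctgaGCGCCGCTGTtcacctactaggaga

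In the alpha cluster the letters are TGATGTCGCT, and the sequences shown are those of PCDHA1, which fell, and PCDHA6, which was low in clone 2.
PCDHA1 (chr5:140786081-140786120): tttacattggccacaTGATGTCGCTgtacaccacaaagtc
PCDHA6 (chr5:140827892-140827931): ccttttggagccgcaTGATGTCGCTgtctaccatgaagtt

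The promoters of PCDHAC1, PCDHAC2, PCDHGC3 and PCDHGC4, the C-type members in the table, do not hold the 10 letters of their cluster. The 80 bases before their starts are shown with each CGCT, the 4 letters that the 3 shared stretches have in common, in capitals, because 3 of these members rose in PCGF6-KO and PCDHGC3 went opposite ways in the clones.
PCDHAC1 (chr5:140926219-140926298): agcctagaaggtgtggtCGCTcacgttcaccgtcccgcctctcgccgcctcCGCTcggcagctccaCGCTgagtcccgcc
PCDHAC2 (chr5:140966396-140966475): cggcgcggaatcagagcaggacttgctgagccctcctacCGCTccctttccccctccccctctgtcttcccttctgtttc
PCDHGC3 (chr5:141475886-141475965): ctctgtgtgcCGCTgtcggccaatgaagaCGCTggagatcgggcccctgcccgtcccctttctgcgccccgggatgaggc
PCDHGC4 (chr5:141484950-141485029): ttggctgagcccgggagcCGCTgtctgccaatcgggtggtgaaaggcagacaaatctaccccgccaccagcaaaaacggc

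The libraries held between 15877396 and 18918609 counts, of which 7641 to 9426, or 0.0454 to 0.0545%, fell on the members. Taking all genes that reached 20 counts, the chi-square between replicate libraries per degree of freedom came to 2.40 for WT, 4.50 for clone 1 and 3.20 for clone 2, and counting error by itself would give 1. Over the members it was 1.70, 1.13 and 1.06, so that the WT libraries differed the most beyond counting error. Reads of PCGF6 itself numbered 268 and 300 in the WT libraries, 99 and 103 in those of clone 1 and 187 and 159 in those of clone 2. The 8 pluripotency markers, POU5F1 and NANOG among them, were detected in every library, with a summed level of 6643 and 6882 CPM (counts per 1000000, scaled by TMM) in WT and 6329 to 7016 in PCGF6-KO. SOX2 was the only marker of these 8 that was called lower.

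Markers of other cells moved with the genotype. The summed level of 8 primitive streak and mesoderm markers was 6.41 and 6.76 CPM in WT, 682 and 692 CPM in clone 1 and 909 and 916 CPM in clone 2, and all 7 that passed the filter on low counts were called higher in PCGF6-KO. MESP1, HAND1 and MSGN1 were at 0 in both WT libraries. The summed level of 5 definitive endoderm markers was 12.3 and 13.1 CPM in WT, 123 and 133 CPM in clone 1 and 167 and 173 CPM in clone 2, and all 5 were called higher. The 8 neuron markers, counted because neurons are the best known source of these proteins, summed to 71.3 and 76.5 CPM in WT and 44.3 to 55.8 CPM in PCGF6-KO, with 1 called higher and 3 lower. The 6 neuroectoderm markers went the other way in sum, from 350 and 396 CPM in WT to 626 to 743 CPM in PCGF6-KO. Of the 5 that passed the filter, 3 were called higher and 1 lower. Most of this sum was NES, at a mean of 300 CPM in WT, 629 CPM in clone 1 and 666 CPM in clone 2. OTX2, the next largest and the 1 called lower, had 72.1, 30.6 and 29.7 CPM, so the sum does not stand for the list. In bulk RNA, fewer cells of a type and less RNA per cell cannot be told apart. The part of such cells in the results on the protocadherins was not tested.

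Members of a cluster share sequence, which limits how well counts tell them apart. Had reads in the constant exons been counted for every member, no alpha member could have had fewer counts than their number, and the lowest alpha member other than PCDHA14 had 10 to 18 counts in a library while the highest had 380 to 476. The lowest gamma member had 3 to 11 counts and the highest 348 to 574. Reads from the constant exons can thus have added at most these lowest numbers to every member. Windows of 50 bases that also occur in another member made up 58.5% of the variable exons of PCDHGB4, 45.5% of PCDHB8, 37.2% of PCDHGA8 and 35.3% of PCDHB10, and their values are less certain. PCDHA2 and PCDHA3 overlap each other, as do PCDHGB4 and PCDHGA8, and PCDHA10 overlaps PCDHA11, PCDHA12 and PCDHA14. In addition, 9 alpha, 9 beta and 1 gamma member overlap an antisense gene, and the strand setting of the counting is not given in the sources used here. These are PCDHA1, PCDHA3, PCDHA5, PCDHA6, PCDHA9, PCDHA10, PCDHA12, PCDHA13, PCDHAC2, PCDHB1, PCDHB2, PCDHB3, PCDHB5, PCDHB6, PCDHB7, PCDHB10, PCDHB11, PCDHB16 and PCDHGB1. On the same strand, PCDHB8, PCDHB9, PCDHB14, PCDHB15 and PCDHB16 overlap a gene that is no member. PCDHGC3 and PCDHGC4 overlap no other gene outside the constant exons and share no such window.

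The members of each cluster stood at unlike levels in WT. PCDHB5 led the beta cluster with 79.5 and 84.2 CPM in WT, 94.6 and 93.8 CPM in clone 1 and 96.0 and 94.2 CPM in clone 2. Per kilobase of variable exon, PCDHB5 stood at a mean of 24.0 CPM in WT, and the next beta members were PCDHB2 at 7.66, PCDHB3 at 6.93 and PCDHB16 at 6.64 CPM per kilobase. The place of PCDHB16, ahead of PCDHB12 at 6.08, is uncertain. Its length as given with the deposited counts is 5001 bases, against the 3840 used here. The PCGF6-KO libraries were all above the WT libraries for PCDHB5, but the difference of 0.21 ± 0.06 (log2, SE) was under the fold limit used here.

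PCDHA11 and PCDHA10 led the alpha cluster. PCDHA11 had 26.7 and 28.5 CPM in WT, 21.4 and 20.8 CPM in clone 1 and 21.3 and 19.9 CPM in clone 2. Its libraries did not overlap between the genotypes, with a log2 difference of −0.40 ± 0.08 that was also under the fold limit. PCDHA10 had 26.8 and 24.1 CPM in WT, 23.1 and 24.9 CPM in clone 1 and 22.9 and 23.7 CPM in clone 2, and its genotypes overlapped. Per kilobase PCDHA11 stood at 8.08 CPM in WT and PCDHA10, whose annotated variable exons are the longest of the cluster, at 1.99. PCDHA14 had no count in any library, and because all of its exon bases are also exon bases of PCDHA10, this says nothing on its transcription.

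PCDHGB5 led the gamma cluster in WT with 21.4 and 26.6 CPM, against 18.0 and 22.2 CPM in clone 1 and 18.8 and 19.5 CPM in clone 2, and its genotypes overlapped. PCDHGB7 had 15.4 and 17.2 CPM in WT, 24.2 and 28.1 CPM in clone 1 and 22.01 and 23.9 CPM in clone 2. PCDHGA11 had 15.5 and 15.9 CPM in WT, 30.0 and 28.2 CPM in clone 1 and 19.7 and 21.2 CPM in clone 2. Both were higher in every PCGF6-KO library than in any WT library. Per kilobase of variable exon, PCDHGB5 was first in WT at 8.85 CPM, and PCDHGB7 was first in both clones, at 9.38 and 8.24 CPM. At the other end, PCDHGC5, PCDHGA12 and PCDHGA7 had about 1 CPM or less in WT. The plot of levels by library shows the span of each cluster.

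**Figure D1:**
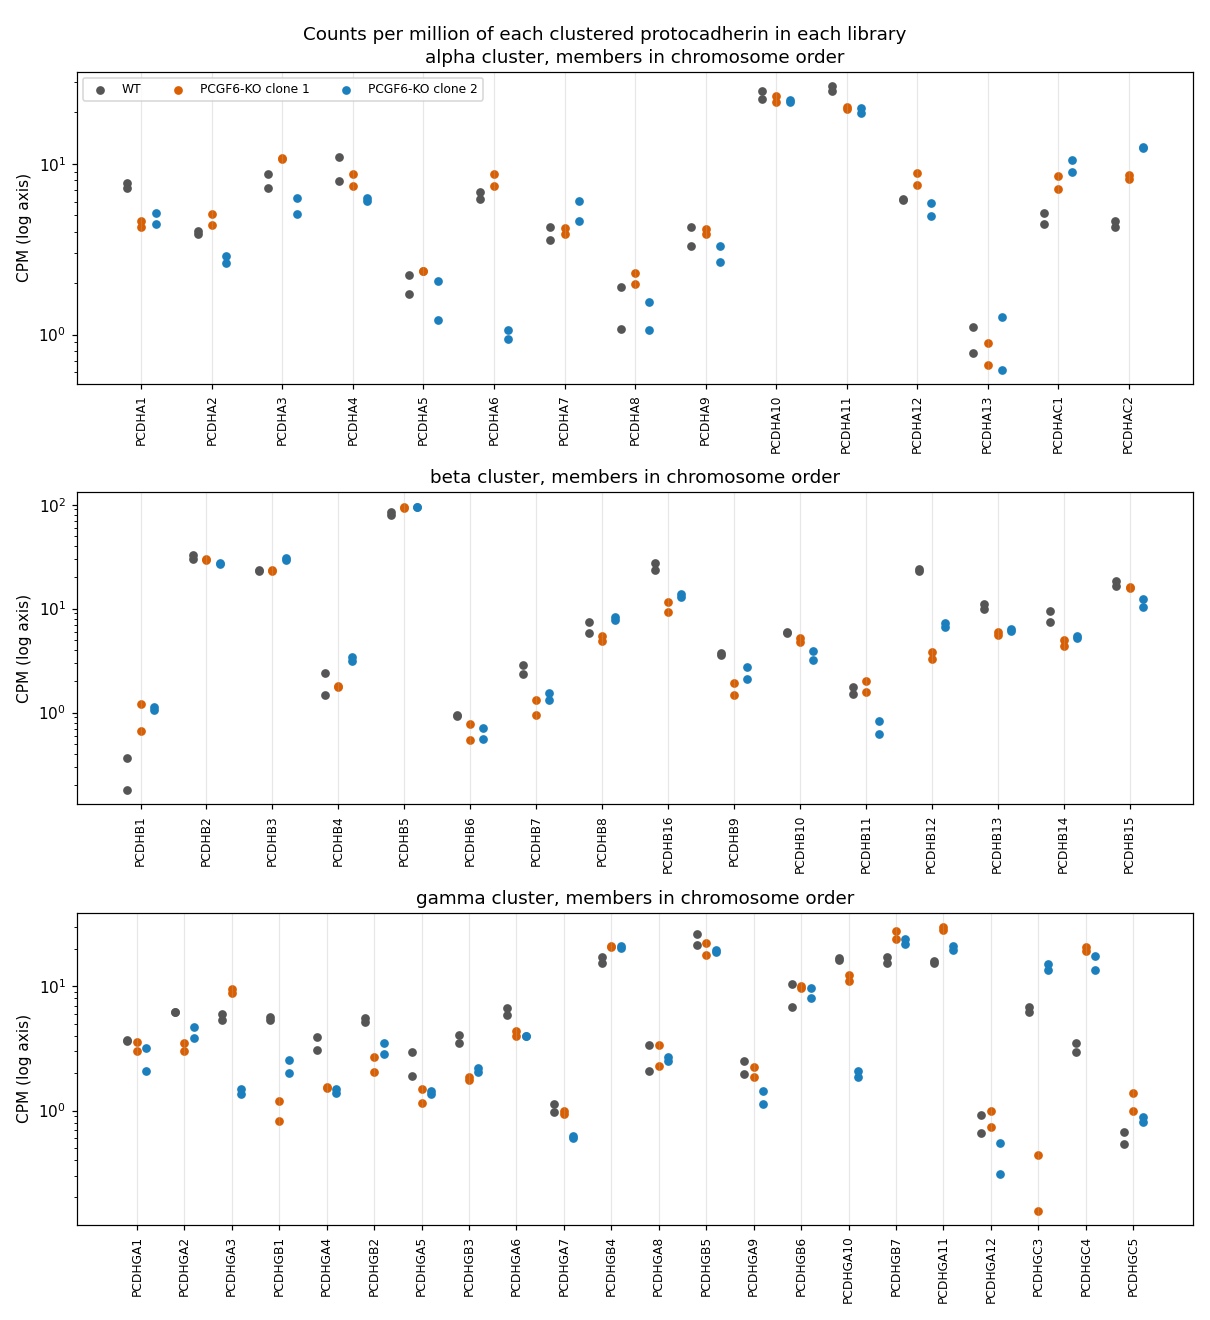
Level of each clustered protocadherin in each of the 6 libraries, in CPM on a log axis, with members in chromosome order and 1 point per library (grey, WT; orange, PCGF6-KO clone 1; blue, clone 2). PCDHA14 has no count and is left out. PCDHB5 stands far above the other beta members, PCDHGC4, PCDHAC1 and PCDHAC2 are higher in both clones than in WT, and PCDHGC3 is near 0 in clone 1 alone.

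The summed level of each cluster was set beside the levels of its members. The alpha cluster summed to 115.9 ± 1.81 CPM in WT (SD, n = 2), 118.8 ± 2.16 CPM in clone 1 and 104.1 ± 2.88 CPM in clone 2. The beta cluster summed to 245.5 ± 10.0 CPM in WT, 205.5 ± 1.31 CPM in clone 1 and 216.7 ± 2.06 CPM in clone 2, so that both clones lay under both WT libraries. The gamma cluster summed to 157 ± 10.8 CPM in WT, 173.9 ± 6.55 CPM in clone 1 and 152.5 ± 9.07 CPM in clone 2. The largest change of a sum was the 16.3% decrease of the beta cluster in clone 1. Without PCDHB5, the log2 ratio of the beta sum to WT went from −0.26 to −0.56 in clone 1 and from −0.18 to −0.43 in clone 2. No test was run on these sums.

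How evenly the members were used was measured by the effective number of members, which is 1 over the sum of their squared shares of the cluster's counts. In the beta cluster it was 6.04 and 5.98 for the WT libraries, 3.92 and 3.92 for those of clone 1 and 4.19 and 4.19 for those of clone 2. PCDHB5 alone took 33.4 and 33.3% of the beta counts of WT, 45.8 and 45.9% of those of clone 1 and 44.02 and 43.8% of those of clone 2. In the gamma cluster the effective number was 12.7 and 12.1 for WT, 9.52 and 9.59 for clone 1 and 9.95 and 9.85 for clone 2. The beta and gamma clusters were thus carried by fewer members in every PCGF6-KO library than in any WT library. The alpha cluster went the other way in clone 1, with 7.35 and 7.57 for WT and 9.12 and 9.07 for clone 1. Clone 2, with 7.89 and 7.66, stayed close to WT.

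The share of a cluster's counts that would have to move between members to turn 1 library into another gives the size of this change. For the gamma cluster it was 24.7 to 25.9% between WT and clone 1 and 24.6 to 26.2% between WT and clone 2, against 3.57 to 5.39% between replicates. For the beta cluster it was 16.9 to 17.8% and 16.2 to 17.8%, against 2.02 to 2.75% between replicates. For the alpha cluster it was 12.1 to 12.6% and 15.2 to 18.3%, against 4.49 to 6.28%. Between the clones, 13.9 to 15.7% of the alpha, 7.24 to 8.19% of the beta and 14.4 to 17.9% of the gamma counts differed in this way. Every distance between groups was larger than every distance between replicates of the same cluster. WT libraries are shared by both clones' values.

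**Figure D2:**
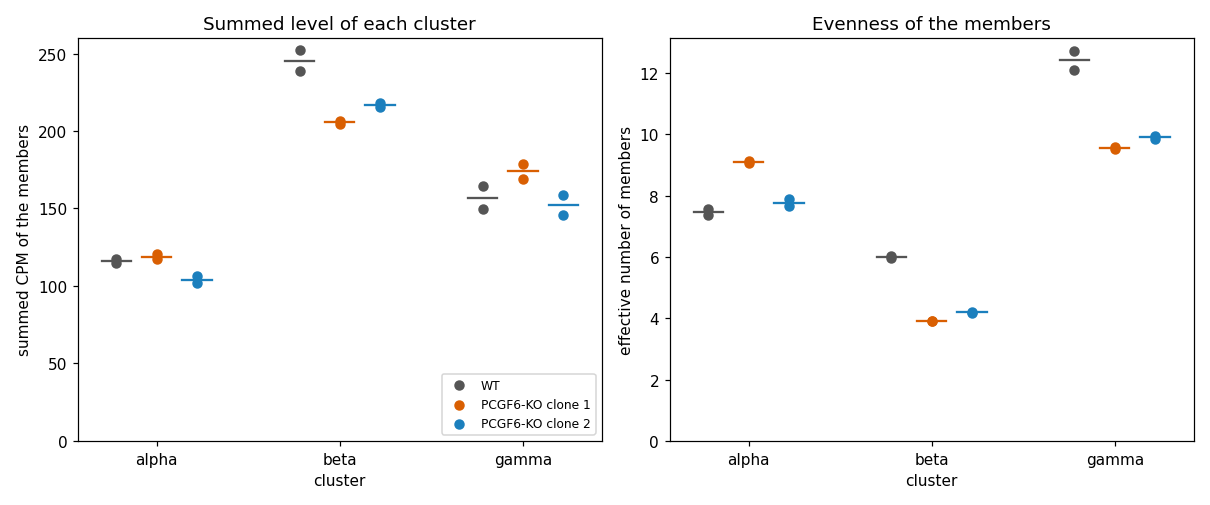
Left, summed level of the members of each cluster in CPM; right, effective number of members, both by cluster with 1 point per library and a line at the group mean of 2 libraries (grey, WT; orange, PCGF6-KO clone 1; blue, clone 2). The beta sums of both clones lie under WT, while the effective number is lower in both clones in the beta and gamma clusters and not in the alpha cluster.

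Each member was then compared between the 4 PCGF6-KO and the 2 WT libraries with edgeR's quasi-likelihood test, fitted over the 17672 genes that passed the filter on low counts, 53 members among them. The 4 PCGF6-KO libraries are 2 from each of 2 clones, and this fit took them as 4 replicates with no term for the clone. Differences between the clones thus enter its spread, and its p-values do not measure variation over independent clones. To be called, a gene needed an absolute log2 fold change above 0.6 and a Benjamini-Hochberg adjusted p below 0.05. Of the 53 members, 5 were called higher (9.43%) and 14 lower (26.4%), where 14.9% of all genes were called higher and 8.70% lower (19 members, 35.8%, against 23.6% in either direction). The median log2 fold change of the members was −0.27, against 0.00 over all genes. By cluster, 2 alpha members were called higher and 1 lower of 15, 1 beta member higher and 6 lower of 16, and 2 gamma members higher and 7 lower of 22. Both WT libraries weighed on these counts: without WT replicate 1 the lower calls fell to 7, and without WT replicate 2 the lower calls fell to 6 and the higher calls to 3. The calls of 7 members held with any 1 library left out, namely PCDHAC2 and PCDHGC4 among those higher and PCDHB16, PCDHB12, PCDHB13, PCDHGB1 and PCDHGA4 among those lower.

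Of the 5 members called higher, 3 were C-type members, PCDHAC1, PCDHAC2 and PCDHGC4, which lie at the downstream end of the alpha and gamma clusters. The other C-type members, PCDHGC3 and PCDHGC5, were not called, and the other increases were those of PCDHB1 and PCDHGA11. PCDHGC4, which is known to support neuron survival, had 2.95 and 3.48 CPM in WT, 19.1 and 20.7 CPM in clone 1 and 13.6 and 17.6 CPM in clone 2. Every PCGF6-KO library was far above both WT libraries. The difference was 5.52-fold (log2 fold change 2.46 ± 0.21, edgeR adjusted p = 2.75e-05), and it was called in clone 1 (log2 2.63) and in clone 2 (2.27).

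PCDHAC2, known for the tiling of serotonergic axons, had 4.61 and 4.26 CPM in WT, 8.63 and 8.20 CPM in clone 1 and 12.4 and 12.5 CPM in clone 2. The groups did not overlap, and clone 2 was the highest. It rose 2.35-fold (log2 1.23 ± 0.23, edgeR adjusted p = 0.00283), with 0.93 in clone 1 and 1.49 in clone 2. PCDHAC1, its neighbour, had 5.16 and 4.44 CPM in WT, 7.11 and 8.53 CPM in clone 1 and 10.5 and 8.97 CPM in clone 2. It rose in all 4 PCGF6-KO libraries, by 1.83-fold (log2 0.87 ± 0.19, edgeR adjusted p = 0.00700). Without WT replicate 2 the value for PCDHAC1 was 0.77 and no longer called (edgeR adjusted p = 0.0795), and without clone 1 replicate 2 its value in clone 1 changed from 0.70 to 0.58, under the fold limit.

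PCDHGC3 went opposite ways in the clones. It had 6.82 and 6.23 CPM in WT (111 and 104 counts), 0.157 and 0.440 CPM in clone 1 (3 and 8 counts) and 13.6 and 15.02 CPM in clone 2 (247 and 241 counts). Clone 1 lay far under WT and clone 2 above it, and no group overlapped another. Relative to WT, its log2 fold change was −4.43 ± 0.31 in clone 1 (edgeR adjusted p = 3.98e-12) and 1.13 ± 0.16 in clone 2 (edgeR adjusted p = 9.05e-07). Taken as 1 group, the 4 PCGF6-KO libraries gave 0.15 ± 1.16, which stands for neither clone. Averaging the values of both clones gave −1.65. The pooled value turned to −0.35 without clone 2 replicate 1 and to −0.46 without clone 2 replicate 2.

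PCDHGC5, the last gamma gene, had 11 and 9 counts in the WT libraries, 19 and 25 counts in those of clone 1 and 16 and 13 counts in those of clone 2, and its log2 fold change of 0.74 ± 0.37 was not called (edgeR adjusted p = 0.152). The 5 C-type members together summed to 20.2 and 18.9 CPM in WT, 36.04 and 39.2 CPM in clone 1 and 51.0 and 54.9 CPM in clone 2. The alpha members upstream of them, PCDHA1 to PCDHA13, summed to 107 CPM in WT, 103 CPM in clone 1 and 81.9 CPM in clone 2. The C-type sum was higher in both clones than in WT, while the upstream alpha sum was not. The C-type sum also holds gamma members, and the gamma genes upstream went both ways. PCDHGA2 to PCDHGA6 summed to a mean of 38.7 CPM in WT, 24.7 CPM in clone 1 and 20.1 CPM in clone 2. PCDHGA7 to PCDHGA12 summed to 104, 125 and 99.0 CPM, and so were higher than WT in clone 1.

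In the beta cluster, the 9 neighbouring genes from PCDHB7 to PCDHB14 held all 6 members called lower in PCGF6-KO against WT, and their summed level was 86.6 and 90.2 CPM in WT, 38.7 and 39.9 CPM in clone 1 and 48.6 and 47.5 CPM in clone 2. The 5 genes just upstream, PCDHB2 to PCDHB6, had no called member in that comparison, with log2 fold changes from −0.52 to 0.38. They summed to 135 and 144 CPM in WT, 151 and 148 CPM in clone 1 and 156 and 156 CPM in clone 2. With the clones taken singly, PCDHB15, which follows PCDHB14, was called lower in clone 2 (log2 −0.62) and PCDHB4 higher in clone 2 (0.76). Both of these calls were lost with some library left out. This division into runs of neighbours was made after the values were seen and was given no test.

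PCDHB12 fell the most, with 23.0 and 24.2 CPM in WT, 3.24 and 3.85 CPM in clone 1 and 7.28 and 6.67 CPM in clone 2. No library of 1 group reached another group. The decrease was 4.49-fold (log2 −2.17 ± 0.27, edgeR adjusted p = 0.000329). PCDHB16, which lies between PCDHB8 and PCDHB9, had 23.6 and 27.3 CPM in WT, 9.21 and 11.6 CPM in clone 1 and 13.7 and 13.0 CPM in clone 2. It fell 2.15-fold (log2 −1.10 ± 0.16, edgeR adjusted p = 0.000601), with every PCGF6-KO library under both WT libraries.

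PCDHB7 had 2.89 and 2.34 CPM in WT, 0.941 and 1.32 CPM in clone 1 and 1.32 and 1.56 CPM in clone 2. PCDHB9 had 3.56 and 3.72 CPM in WT, 1.94 and 1.49 CPM in clone 1 and 2.096 and 2.74 CPM in clone 2. Both were lower in all 4 PCGF6-KO libraries, by 1.02 ± 0.27 and 0.82 ± 0.26 on the log2 scale (edgeR adjusted p = 0.0154 and 0.0339). PCDHB7 was lost without WT replicate 1 (log2 −0.87) or WT replicate 2 (−1.17), and PCDHB9 without any 1 library except clone 2 replicate 2, with values from −0.85 to −0.68. DESeq2 called neither (adjusted p = 0.0502 and 0.0694), and PCDHB9 was also lost with the replicate block (edgeR adjusted p = 0.0616). PCDHB13 fell by 0.80 and PCDHB14 by 0.76 on the log2 scale, and PCDHB14 was lost without WT replicate 2 (−0.56). Within the same run PCDHB8 and PCDHB10, at −0.00 and −0.45, were not called, nor was PCDHB11 at −0.36. In clone 2 against WT, PCDHB10 (log2 −0.73) and PCDHB11 (−1.16) were called lower, and DESeq2 called neither there (adjusted p = 0.0517 and 0.119).

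PCDHB1, the first beta gene and 43.2 kilobases upstream of PCDHB2, was the only beta member called higher. Its WT libraries held 6 and 3 counts, those of clone 1 held 23 and 12, and those of clone 2 held 19 and 18. The groups did not overlap, at a very low level. Its log2 fold change was 1.86 ± 0.48 (edgeR adjusted p = 0.0143), and without WT replicate 2 it was 1.44 and not called (edgeR adjusted p = 0.135). PCDHB1 overlaps the antisense gene PCDHB1-AS1, and the strand of its reads cannot be told from the counts.

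In the gamma cluster, 7 of the 8 genes from PCDHGA2 to PCDHGA6 were called lower in PCGF6-KO against WT, which are all the gamma members called lower in that comparison. With the clones taken singly, PCDHGA10 (log2 −3.05) and PCDHGA9 (−0.80) were called lower in clone 2 and PCDHGC3 (−4.43) in clone 1, and these lie outside that run. The summed level of these 8 was 37.4 and 39.97 CPM in WT, 24.7 and 24.6 CPM in clone 1 and 19.7 and 20.5 CPM in clone 2. The 10 genes that follow, PCDHGA7 to PCDHGA12, summed to 97.9 and 111 CPM in WT, 121 and 128 CPM in clone 1 and 96.1 and 102 CPM in clone 2, with 1 called higher. This division too was made after the values were seen.

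PCDHGB1 fell the most of these, with 5.40 and 5.69 CPM in WT, 1.20 and 0.825 CPM in clone 1 and 2.54 and 1.99 CPM in clone 2. All 3 groups stood apart. It fell 3.39-fold (log2 −1.76 ± 0.36, edgeR adjusted p = 0.00470). PCDHGA4 had 3.07 and 3.90 CPM in WT, 1.52 and 1.54 CPM in clone 1 and 1.38 and 1.496 CPM in clone 2, and fell 2.34-fold (log2 −1.23 ± 0.22, edgeR adjusted p = 0.00229). The clones lay close together in PCDHGA4, and both were under WT.

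PCDHGB2 had 5.53 and 5.15 CPM in WT, 2.04 and 2.70 CPM in clone 1 and 2.87 and 3.49 CPM in clone 2. PCDHGB3 had 4.05 and 3.48 CPM in WT, 1.78 and 1.87 CPM in clone 1 and 2.21 and 2.06 CPM in clone 2. WT was highest for both, and they fell by 0.95 ± 0.23 and 0.93 ± 0.21 on the log2 scale (edgeR adjusted p = 0.0105 and 0.00767). PCDHGB2 was lost without either WT replicate (−0.90 and −0.997) and PCDHGB3 without WT replicate 1 (−0.81). The remaining calls were PCDHGA2, PCDHGA5 and PCDHGA6, at −0.72, −0.83 and −0.62. Each was lost without WT replicate 2 (−0.73, −0.48 and −0.52), and PCDHGA2 and PCDHGA6 also without WT replicate 1 (−0.71 and −0.71). PCDHGA5 was lost without any 1 PCGF6-KO library (−0.87 to −0.75) and by DESeq2 (adjusted p = 0.134), and PCDHGA6 came under the fold limit, at −0.60, without clone 1 replicate 1 or clone 2 replicate 1. PCDHGA3, which lies in the same run, was not called, and its clones lay on opposite sides of WT.

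PCDHGA11 was the other gamma member called higher, by 1.58-fold (log2 0.66 ± 0.18, edgeR adjusted p = 0.0190). It was lost without WT replicate 1 (0.64), WT replicate 2 (0.68) or clone 1 replicate 1 (0.56). PCDHGB7 was higher in all 4 PCGF6-KO libraries too, but its log2 fold change of 0.59 ± 0.12 (edgeR adjusted p = 0.00450) was just under the limit. In the alpha cluster, PCDHA1, the first gene, was the only member called lower. It had 7.74 and 7.19 CPM in WT, 4.24 and 4.62 CPM in clone 1 and 5.18 and 4.43 CPM in clone 2. It fell 1.62-fold with no overlap (log2 −0.69 ± 0.16, edgeR adjusted p = 0.00849), and was lost without WT replicate 1 (−0.64) or WT replicate 2 (−0.74). An antisense gene overlaps PCDHA1. Of the alpha members between PCDHA1 and PCDHAC1, none was called, with log2 fold changes from −0.51 for PCDHA6 to 0.26 for PCDHA7.

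**Figure D3:**
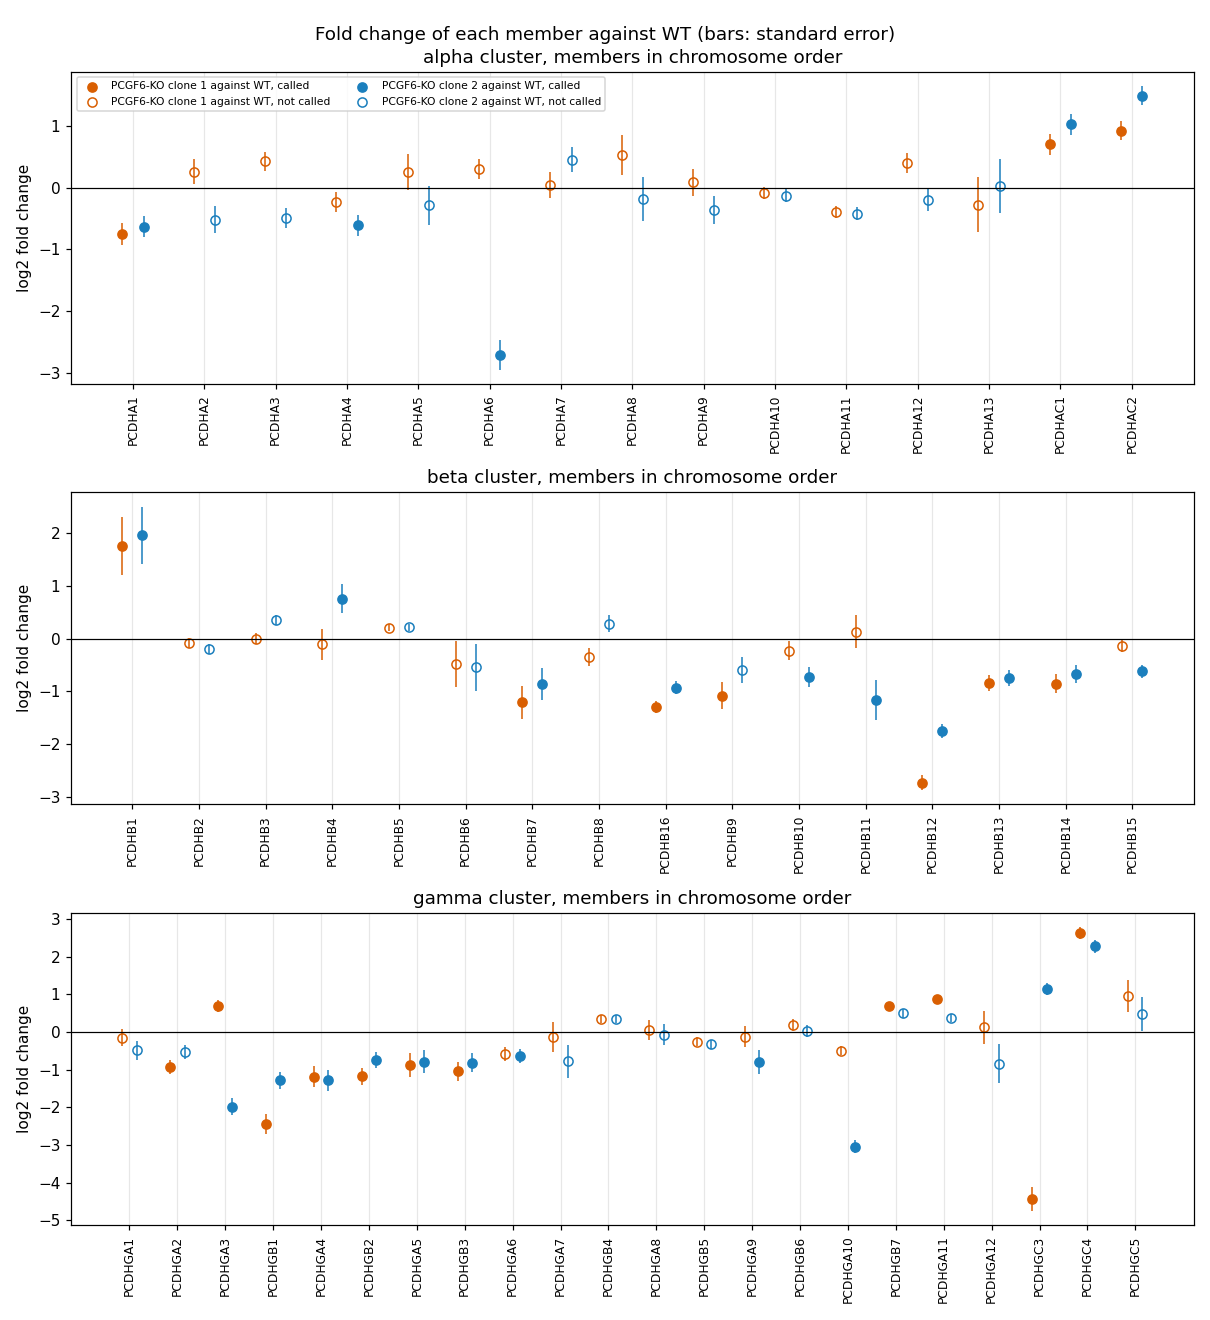
Log2 fold change of each member tested, in clone 1 against WT (orange) and clone 2 against WT (blue), with members in chromosome order, bars for the standard error and filled points for called members; the 2 WT libraries are shared by both comparisons. Members from PCDHB7 to PCDHB14 and from PCDHGA2 to PCDHGA6 lie mostly under 0 in both clones, PCDHAC1, PCDHAC2 and PCDHGC4 lie above 0 in both, and PCDHA6, PCDHGA3, PCDHGA10 and PCDHGC3 differ between the clones.

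A fit with 3 groups set each clone against WT. In clone 1, 7 members were called higher and 14 lower of 53, against 16.0% and 8.80% of all genes (39.6% of members against 24.8% in either direction). In clone 2, 6 members were called higher and 20 lower, against 16.9% and 12.5% of all genes (49.1% of members against 29.4%). The median log2 fold change was −0.12 in clone 1 and −0.49 in clone 2. The comparisons share the WT libraries, so their calls are given side by side only. PCDHAC1, PCDHAC2, PCDHB1 and PCDHGC4 were called higher in both, 11 members were called lower in both, and 23 were called in neither. The share of all genes called in both clones was not computed, so these counts cannot be read as particular to the members. The call of PCDHB1 was lost by DESeq2 (adjusted p = 0.105 for clone 1 and 0.0547 for clone 2), and without WT replicate 2 in both (log2 1.34 and 1.53). PCDHGA3 was called higher in clone 1 and lower in clone 2, and PCDHGC3 the reverse. With any 1 library left out, the calls of 17 of the 21 members held in clone 1 and of 12 of the 26 in clone 2. DESeq2 called 11 in place of 20 members lower in clone 2. Among those that held in clone 1 were PCDHB12 at −2.73, PCDHGB1 at −2.44 and PCDHB16 at −1.30, and in clone 2 PCDHB12 at −1.75, PCDHGB1 at −1.28 and PCDHB16 at −0.93.

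Between the clones, which share no library, 5 members were called higher in clone 2 and 6 lower of 53, where 3.73% of all genes were called higher and 4.14% lower (20.8% of members against 7.87% in either direction). The 5 fell to 2 without clone 1 replicate 2 or without clone 2 replicate 1. The calls of PCDHA3, PCDHA6, PCDHB12, PCDHGA3, PCDHGA10 and PCDHGC3 held with any 1 library left out. The plot of the clones against each other shows PCDHGC3 alone far above 0 and PCDHA6, PCDHGA3 and PCDHGA10 far below.

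**Figure D4:**
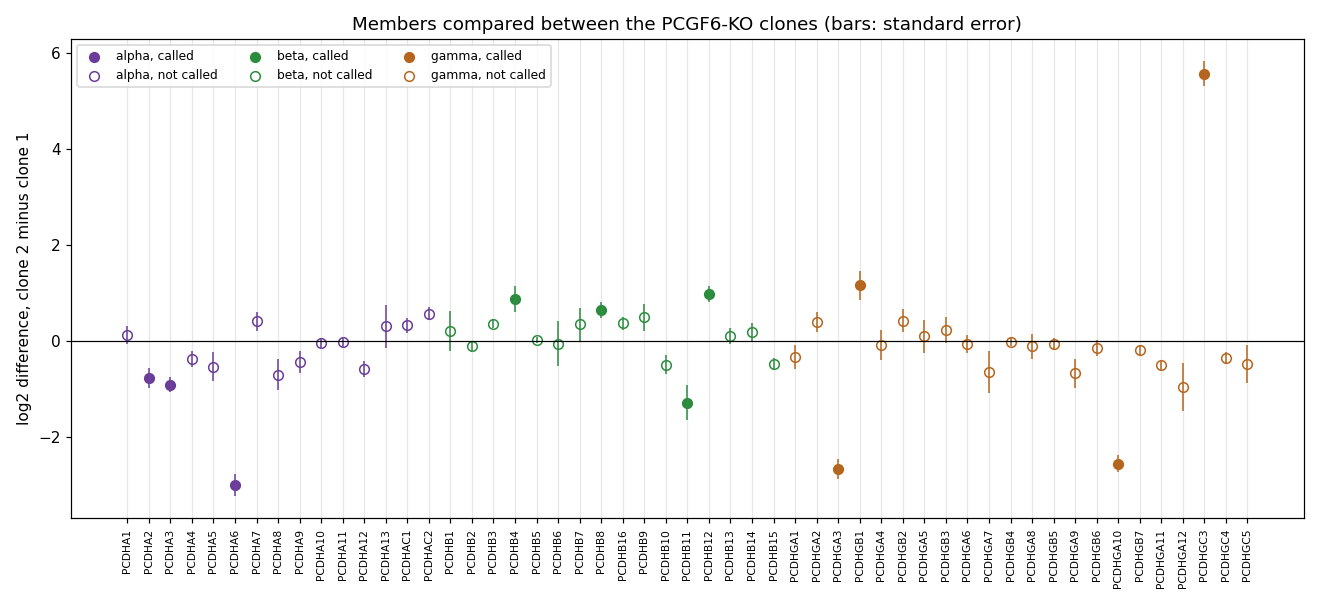
Log2 difference of clone 2 minus clone 1 for each member tested, in chromosome order, with bars for the standard error and filled points for the 11 called members (purple, alpha; green, beta; brown, gamma). Most members lie within 1 log2 unit of 0, PCDHGC3 stands at 5.57, and PCDHA6, PCDHGA3 and PCDHGA10 lie between −3.01 and −2.56.

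PCDHGC3 differed by 5.57 ± 0.27 on the log2 scale between the clones (edgeR adjusted p = 5.17e-14), which is 47.4-fold higher in clone 2 on 3 and 8 counts in clone 1. The 3 other large differences were losses in clone 2. PCDHA6 had 6.82 and 6.23 CPM in WT, 8.73 and 7.37 CPM in clone 1 and 0.938 and 1.06 CPM in clone 2. Its WT counts, 111 and 104, are the same as those of PCDHGC3 in the deposited table, while the counts in the clones differ. Clone 2 was far under both others, by 8.05-fold against clone 1 (log2 −3.01 ± 0.23, edgeR adjusted p = 4.24e-10). The genes beside it, PCDHA5 and PCDHA7, differed by −0.54 and 0.41 between the clones and were not called.

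PCDHGA10 had 16.2 and 16.8 CPM in WT, 12.4 and 11.002 CPM in clone 1 and 2.096 and 1.87 CPM in clone 2. All 3 groups were apart, and clone 2 was the lowest. It was 5.88-fold lower in clone 2 than in clone 1 (log2 −2.56 ± 0.18, edgeR adjusted p = 5.40e-11). PCDHGA3 had 5.34 and 5.99 CPM in WT, 9.52 and 8.86 CPM in clone 1 and 1.49 and 1.37 CPM in clone 2. WT lay between the clones, and clone 2 was 6.39-fold lower than clone 1 (log2 −2.68 ± 0.21, edgeR adjusted p = 4.27e-10).

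Smaller differences were found in both directions. PCDHB12 and PCDHGB1, which fell in both clones, were less reduced in clone 2, by 0.98 ± 0.17 and 1.16 ± 0.30 on the log2 scale (edgeR adjusted p = 0.000105 and 0.00739). PCDHGB1 was lost without clone 1 replicate 2 (0.91) or clone 2 replicate 1 (0.96), and by DESeq2 (adjusted p = 0.0591). PCDHA3 had 7.25 and 8.75 CPM in WT, 10.9 and 10.6 CPM in clone 1 and 6.29 and 5.05 CPM in clone 2, a difference of −0.92 ± 0.16 (edgeR adjusted p = 0.000115) with WT between the clones. PCDHA2, which overlaps it, had 3.87 and 4.02 CPM in WT, 4.39 and 5.06 CPM in clone 1 and 2.87 and 2.62 CPM in clone 2. Its difference was −0.78 ± 0.21 (edgeR adjusted p = 0.00907), and it was lost without clone 1 replicate 2 (−0.68) or clone 2 replicate 2 (−0.72), and by DESeq2 (adjusted p = 0.127).

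PCDHB11 had 1.78 and 1.498 CPM in WT, 1.57 and 2.04 CPM in clone 1 and 0.827 and 0.623 CPM in clone 2. PCDHB4 had 1.47 and 2.40 CPM in WT, 1.78 and 1.82 CPM in clone 1 and 3.14 and 3.43 CPM in clone 2. PCDHB8 had 7.37 and 5.87 CPM in WT, 5.49 and 4.90 CPM in clone 1 and 8.38 and 7.73 CPM in clone 2. In all 3 the clones did not overlap, with clone 2 the lower in PCDHB11 (log2 −1.29 ± 0.37) and the higher in PCDHB4 (0.87 ± 0.27) and PCDHB8 (0.63 ± 0.17). Their edgeR adjusted p-values were 0.0130, 0.0239 and 0.00772. Each call was lost with some library left out, PCDHB4 with any of the 4 clone libraries (0.81 to 0.93), PCDHB11 without clone 1 replicate 2 (−1.10) or clone 2 replicate 2 (−1.11), and PCDHB8 without clone 1 replicate 2 (0.55) or clone 2 replicate 1 (0.57). DESeq2 called none of the 3 (adjusted p = 0.141 for PCDHB11, 0.207 for PCDHB4 and 0.0931 for PCDHB8). PCDHB8 shares many of its windows with other members.

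The promoter letters were set beside these changes as a description. GGTGGCGCTG stood in the promoters of 12 of 14 beta members in the table, 2 to 84 bases before the start, and in 0.276% of the 35116 promoters of all genes. It was present in 7 of 8 promoters from PCDHB7 to PCDHB14 and in 4 of 4 from PCDHB2 to PCDHB6, so runs that fell and runs that did not both carried it. TGATGTCGCT stood in 8 of 13 alpha members and in 0.0342% of all promoters, 44 to 87 bases before the start. PCDHA6, low in clone 2, and PCDHA12, which was called in no comparison, both hold it.

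GCGCCGCTGT stood in 9 of 20 gamma members and in 0.131% of all promoters. It was found in 1 of 8 genes from PCDHGA2 to PCDHGA6, namely PCDHGB1, and in 7 of the 9 genes from PCDHGA7 to PCDHGA12 that have a promoter in the table. All 3 stretches were searched on both strands, were picked as the most shared letters of each cluster, and hold CGCT. Only exact matches were counted, so a promoter without the letters may still hold similar ones. The runs of neighbours were drawn after the values were seen. The E-box CACGTG, which MAX and MYC bind, stood in 3 of 47 members, PCDHA9, PCDHA10 and PCDHA11, and in 7.26% of all promoters. GCGGGAA, an E2F6 sequence, stood in 0 of 47 members and in 6.55% of all promoters, which says only that these letters are not in these windows.

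The C-type promoters held more CpG, the dinucleotide that DNA methyltransferases modify, than most other members. Within each promoter window, from 250 bases before to 50 after the start, PCDHAC1 held 27 CpG, PCDHAC2 15, PCDHGC3 18 and PCDHGC4 23 or 24 in its 2 entries. The other members had a median of 7 and a range from 2 to 25, with the most in PCDHGB6 (16 and 25 in its 2 entries), and all promoters in the table a median of 14. PCDHGA4, with 2 CpG, had the fewest.

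Genes that are known to act on these promoters were examined as a list, beside the 23.6% of all genes called in either direction. Of 26 such genes, among them CTCF, the cohesin subunits, SMCHD1 and the DNA methyltransferases, DNMT3B was called lower and DNMT3L higher in PCGF6-KO. DNMT3B, a methyltransferase that sets new DNA methylation, had 48123 and 51479 counts in the WT libraries, against 30682 and 28311 in those of clone 1 and 20832 and 18592 in those of clone 2. All PCGF6-KO libraries were under WT, and clone 2 was the lowest, with a log2 fold change of −1.14 ± 0.14 (edgeR adjusted p = 0.000250). DNMT3L, a cofactor of such enzymes, had 0 and 2 counts in the WT libraries, against 72 and 62 (clone 1) and 52 and 60 (clone 2), and is given without a fold because WT held so few counts. The part of either gene in the changes of the protocadherins was not tested.

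Protocadherins outside the clusters were examined next. Of 11 such genes tested, 8 were called higher and 2 lower, where 14.9% of all genes were called higher and 8.70% lower, with a median log2 fold change of 1.92. PCDH10 had 178 and 203 counts in the WT libraries, against 4421 and 4349 (clone 1) and 4082 and 3848 (clone 2), a rise of 4.34 ± 0.08 on the log2 scale (edgeR adjusted p = 1.14e-08). PCDH8, a gene of the paraxial mesoderm, rose by 3.77 and PCDH7 by 3.02. PCDH1 and PCDH12 fell, by 1.07 and 1.44.

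Neighbours of the clusters in the same band of chromosome 5 were examined as well. Of the 16 listed, CD14 had too few counts to be tested, and SLC25A2 and DND1 had 0 counts in every library. Among the rest, the share called was close to the 23.6% of all genes called in either direction. The 3 called were all lower. They were RELL2 (log2 −1.35 ± 0.20), FCHSD1 (−0.80 ± 0.14) and ARAP3 (−1.05 ± 0.08), with edgeR adjusted p = 0.000901, 0.00215 and 1.40e-05. These 3 lie downstream of the gamma cluster. DIAPH1 and HDAC3, also on the list, were not called (log2 0.23 and −0.45). Of 20 proteins that act with clustered protocadherins inside the cell, 2 were called, against the same 23.6% of all genes. RET, a receptor kinase, was called higher (log2 1.71 ± 0.17, edgeR adjusted p = 8.07e-05) and CYFIP2, a subunit of the WAVE complex, lower (−1.44 ± 0.08, edgeR adjusted p = 3.29e-06).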

How the data were processed

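RNA-seq was performed on WT PGP1 cells and on PCGF6-KO clones 1 and 2, with 2 libraries each. The authors trimmed adapters with Trim Galore (0.6.2), aligned reads to GRCh38 with HISAT2 (2.1.0), counted reads per gene with featureCounts and deposited raw counts for 57133 genes. The strand setting, the gene annotation and the treatment of reads shared by genes are not given in the sources used here. ChIP-seq samples of the series were not analysed here.

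Genes with low counts were removed with filterByExpr on the 2 genotypes, libraries were scaled by TMM, and edgeR (4.0.16, R 4.3.3) was fitted over the whole table with glmQLFit and glmQLFTest, with Benjamini-Hochberg adjustment over 17672 genes. PCGF6-KO (4 libraries) was compared with WT (2), and a fit with 3 groups compared the clones with WT and with each other. Calls needed an adjusted p below 0.05 and a log2 fold change beyond 0.6 in either direction. Any member could be named. Values in every library were planned for the leading member of each cluster in each group and the C-type members. They were also planned for up to 4 called members per cluster in each direction and between the clones. Genes of the lists were named mainly where called, and some that were not called were named as examples or after their values were seen. Shares, sums and the effective number are descriptions. Positions and exon lengths came from GENCODE release 44, matched by symbol. The alternatives were DESeq2 (1.42.0), other scalings, filters and thresholds, the mean of the clones, the replicate block, a fit to the compared groups alone, and leaving out each library. The steps were tested on simulated counts. The members and lists were chosen with earlier results of these data known.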

Additional observations from a re-analysis of the deposited data

Results flagged for a closer look

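The clones differed from each other in 11 members, tested as clone 2 against clone 1 in the fit with 3 groups. The differences on the log2 scale, clone 2 minus clone 1, were −0.78 for PCDHA2, −0.92 for PCDHA3 and −3.01 for PCDHA6 in the alpha cluster. They were 0.87 for PCDHB4, 0.63 for PCDHB8, −1.29 for PCDHB11 and 0.98 for PCDHB12 in the beta cluster. In the gamma cluster they were −2.68 for PCDHGA3, 1.16 for PCDHGB1, −2.56 for PCDHGA10 and 5.57 for PCDHGC3. Of these, PCDHGA3 and PCDHGC3 were called against WT in opposite directions in the clones.

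In 1 library a member stood apart from the others of its genotype. PCDHGA6 had 3.98, 3.97 and 3.99 CPM in 3 of the 4 PCGF6-KO libraries and 4.35 CPM in clone 1 replicate 2, whose gap to the nearest other library was 0.952 of the range, above Dixon's critical value at the 95% level for 4 values. In counts it was 79 in that library, against 76 in clone 1 replicate 1 and 72 and 64 in clone 2. This was the only such case among 56 groups examined, where chance gives about 1 in every 20 groups.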

How the results depend on the processing

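Of the 120 counts of calls recomputed under an alternative, 103 stayed within 1.5 times the reported count, and of 1094 values of members 990 kept their direction and call. With edgeR's test against a 1.5-fold change (glmTreat), members called higher and lower were 2 and 4 in PCGF6-KO against WT, 3 and 7 in clone 1, 7 lower in clone 2, and 1 and 3 between the clones. With no fold limit, 8 were higher in PCGF6-KO, 11 higher in clone 2, and 10 lower between the clones. DESeq2 called 11 lower in clone 2 and 2 higher between the clones, and lost 22 of 85 values of members. Leaving out 1 library gave 3 to 6 higher and 6 to 13 lower in PCGF6-KO, 5 to 7 and 13 to 15 in clone 1, 5 to 6 and 14 to 20 in clone 2, and 2 to 5 and 4 to 7 between the clones. PCDHGC3 in PCGF6-KO reversed to −1.65 as the mean of the clones, −0.35 without clone 2 replicate 1 and −0.46 without clone 2 replicate 2, in a range from −0.46 to 0.57 with 1 library left out.

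Log2 ratios of cluster sums moved as follows. Without the leading member, alpha, beta and gamma in clone 1 against WT were 0.0681, −0.56 and 0.0354, beta in clone 2 was −0.43, and beta between the clones 0.13. With library totals, alpha and beta in clone 2 were −0.24 and −0.27, and alpha and beta between the clones −0.27 and 0.0017. With upper-quartile scaling, alpha in clone 2 was −0.20 and beta between the clones 0.0512. Gamma in clone 2 turned to 0.0301 without WT replicate 2 and 0.0177 without clone 2 replicate 1. With 1 library left out, the ratios in clone 1, in clone 2 and between the clones ranged from 0.02 to 0.05, −0.18 to −0.13 and −0.22 to −0.16 for alpha, −0.30 to −0.21, −0.22 to −0.14 and 0.07 to 0.09 for beta, and 0.08 to 0.22, −0.11 to 0.03 and −0.25 to −0.13 for gamma. The causes were not tested.

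Replicate numbers did not pair the libraries, with correlations of deviations of −0.00, 0.04 and 0.06 (Pearson) and 0.0678, 0.0915 and 0.165 (Spearman). The replicate block lost 2 of 85 values of members, PCDHB9 in PCGF6-KO (−0.82) and PCDHA4 in clone 2 (−0.60). Members under about 20 counts, such as PCDHB1 and PCDHGC5, are limited by depth.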

Other observations

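Pseudogenes inside the clusters were counted too. PCDHB18P had 94 and 128 counts in the WT libraries, against 111 and 89 (clone 1) and 79 and 91 (clone 2). PCDHB17P, at a mean of 6.47 CPM in WT, 4.94 CPM in clone 1 and 3.71 CPM in clone 2, was called lower in clone 2 against WT (log2 −0.81, edgeR adjusted p = 0.00117), and was named after its values were seen. The other pseudogenes, PCDHB19P and PCDHGB8P, had 4 to 28 counts in a library.

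Several protocadherins outside the clusters also differed between the clones. Of the 11 tested, 5 were called higher in clone 2 than in clone 1, against 3.73% of all genes, namely PCDH7 (log2 0.74), PCDH9 (0.69), PCDH15 (0.88), PCDH17 (0.69) and PCDH19 (0.73). PCDH10 differed by −0.02 ± 0.06 (SE) and was not called. In clone 2 the summed level of the mesoderm markers was also the higher, and its part in these differences was not tested.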
